A study of Mus musculus with 24 samples.

Results

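The genes described here encode the main proteins of mouse milk and of the milk fat globule. They are the caseins Csn1s1, Csn2, Csn1s2a, Csn1s2b and Csn3, the whey proteins Wap and Lalba, the mucin-like milk protein Glycam1, and the milk fat globule genes Btn1a1 and Xdh. They were taken by symbol through GENCODE M1 from the count table and make up 10 of its 37991 genes. RNA of mammary tumors or glands was not separated by cell type, and directional libraries depleted of ribosomal RNA were counted per gene. PyMT females were heterozygous for the polyoma middle T transgene under the MMTV promoter, which is active in mammary epithelium, on the FVB background, and FVB females without the transgene were the controls. Groups of 3 mice per genotype were taken at weeks 6 (hyperplasia in PyMT), 8 (adenoma/MIN), 10 (early carcinoma) and 12 (late carcinoma), which gives 24 libraries in 8 groups. The transgene's own transcript was not analysed here.

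Milk proteins are made by the secretory luminal cells of the gland. Prolactin binds its receptor on these cells and activates JAK2 and STAT5, and STAT5 together with Elf5, glucocorticoid receptor and other factors turns on the casein and whey genes late in pregnancy. Caseins assemble into micelles that carry calcium and phosphate, Csn3 covers and stabilizes the micelle, Lalba is the regulatory part of lactose synthase, and Btn1a1 and Xdh act together in wrapping fat droplets in membrane.

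Total counts ran from 6969375 to 13516601 with a median of 8280269. The libraries differed in more than genotype. The summed level of 8 luminal markers was 4031 to 18120 normalized counts (counts divided by DESeq2's size factor of the library) in FVB and 18450 to 36340 in PyMT, and that of 7 adipocyte markers was 18660 to 50620 in FVB and 533.5 to 5559 in PyMT, with no marker of either list at 0 in all libraries of a genotype. In 4 FVB libraries (week 6 replicates 1 and 2, week 10 replicate 3, week 12 replicate 1) the sum of 6 skeletal muscle markers was over 100000. In 13 libraries, 6 PyMT and 7 FVB, the smoothed histogram of counts per gene had a peak at 8 to 25 reads, called a packet here. Such packets may coarsen low counts, and peaks at multiples of them were not checked. In these bulk samples fewer cells of a type and less RNA per cell cannot be told apart, and the part of these differences in the results below was not tested unless a value is given.

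The 10 genes together took 0.607 to 1.91% of all counts in the 12 PyMT libraries and 0.0345 to 0.158% in the 12 FVB libraries, so the ranges did not overlap. Csn3 alone gave 27.8 to 79.3% of these counts in PyMT, with a median of 57.7%, and 3.43 to 46.2% in FVB, where Xdh had the higher median share of 40.2%. Of the 10 genes, 8 passed the filter of at least 1 CPM (a count scaled to the size of the library) in at least 12 libraries and were tested. Csn1s2b and Glycam1 did not. Wap passed through the PyMT libraries alone, since 0 FVB libraries reached 1 CPM.

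**Figure D1:**
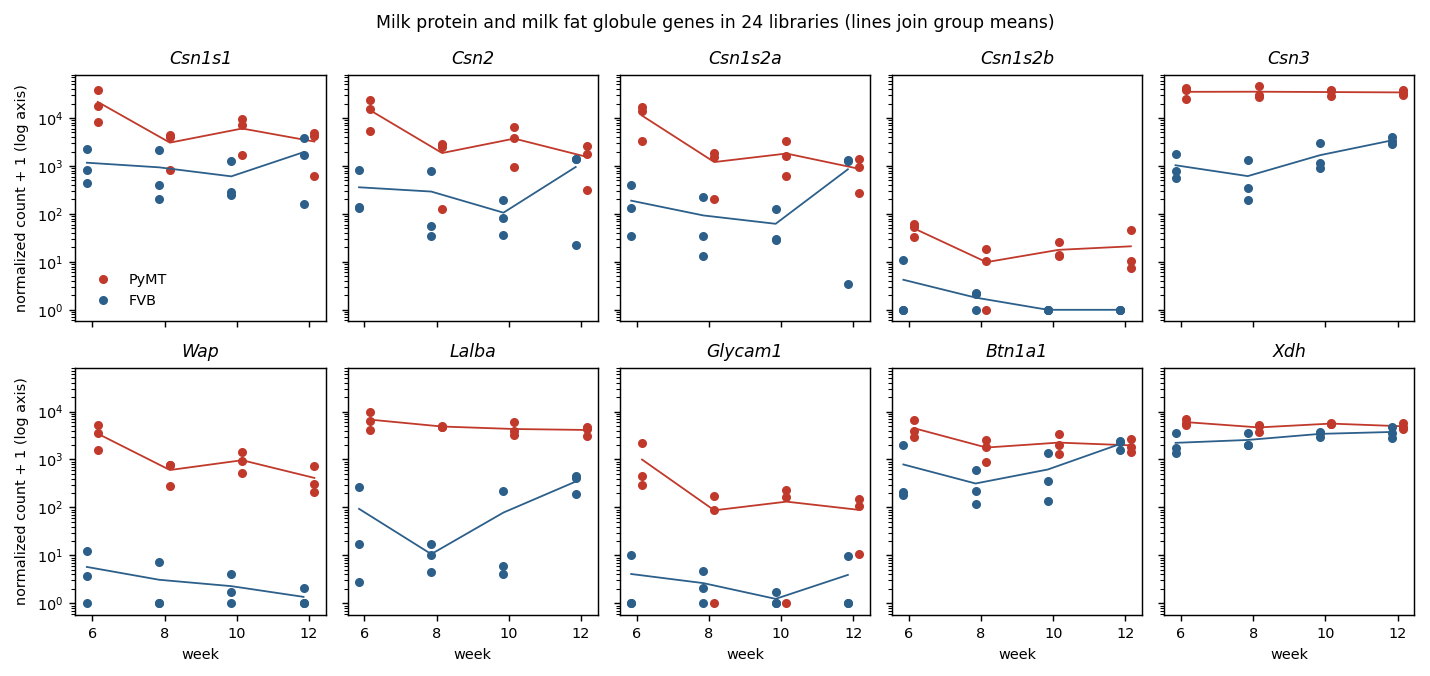
Normalized count plus 1 (log axis) of each gene by week, one point per library, with lines joining the group means of 3 PyMT and 3 FVB libraries. Csn3, Wap and Lalba lie higher in every PyMT library than in every FVB library of the same week, while Csn1s1, Csn2, Csn1s2a, Btn1a1 and Xdh overlap at week 12.

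At week 6, hyperplasia, 7 of the 8 tested genes were higher in PyMT (called where the adjusted p was below 0.05 and the levels differed more than 2-fold), and 3.58% of all tested genes were called higher. The counts were 4 of 8 at week 8, where the background was 3.57%, 6 of 8 at week 10, where it was 4.83%, and 3 of 8 at week 12, where it was 7.75%. None was called lower at any week. Wap is counted among the higher genes at each week and over the 4 weeks together. It passed the filter through the PyMT libraries alone, which favours a call of higher. The p-values are from the quasi-likelihood test of edgeR, adjusted by Benjamini-Hochberg over 14918 genes. The median log2 fold change of the 8 genes was 5.21, 3.22, 4.72 and 0.77 at weeks 6, 8, 10 and 12, beside -0.08, -0.04, 0.01 and 0.00 over all tested genes. All 3 PyMT libraries lay above all 3 FVB libraries for 10, 5, 8 and 5 of the 10 genes at the 4 weeks, and for 16.2%, 18.4%, 18.9% and 21.5% of all tested genes. The 10 include Csn1s2b and Glycam1, which are not among the tested genes. Both are counted at week 12, with lowest PyMT values of 6.47 and 9.62 beside highest FVB values of 0 and 8.75. With the 4 weeks together and week as a factor, 7 of 8 were higher beside a background of 8.51%, and none was lower, beside 17.2%, the exception from the higher ones being Xdh with a log2 fold change of 0.86. Without the 4 muscle-rich FVB libraries 7 were again called, beside 3470 of 14918 genes in either direction. Without the 13 libraries with packets 3 were, namely Csn3, Wap and Lalba, beside 3378 of 14918 genes in either direction. That last fit held no PyMT library of week 6 and no FVB library of week 10, so weeks 8 and 12 alone set its difference, and both choices were made after seeing the data. Of all calls, 35.6%, 35.9%, 34.7% and 37.4% were higher at the 4 weeks, beside 54.4%, 52.7%, 50.8% and 57.4% when scaled by library size only.

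The casein genes lie within 266.4 kb of chromosome 5 on mm9. Csn1s1 (ENSMUSG00000070702, chr5:88095249-88111598, plus strand) encodes alpha-s1 casein. At week 6 it stood at 39008, 8242 and 17847 normalized counts in PyMT replicates 1 to 3 and at 446, 2221 and 836.1 in FVB. All PyMT values lay above all FVB values, and the log2 fold change was 4.22 (SE 0.77, edgeR adjusted p = 0.0112). At week 12 it stood at 4826, 624.0 and 4229 in PyMT and at 3917, 160.1 and 1730 in FVB. These groups overlapped, and the log2 fold change of 0.78 (SE 0.99) did not pass (edgeR adjusted p = 0.6). At week 8 the log2 fold change was 1.74 (edgeR adjusted p = 0.264), and at week 10 it was 3.40 (edgeR adjusted p = 0.0297). The week 10 call was lost without FVB replicate 1 or 2 or PyMT replicate 1 or 3 (edgeR adjusted p up to 0.0934).

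Csn2 (ENSMUSG00000063157, chr5:88121647-88128446, minus strand) encodes beta casein, the partner of Csn1s1 in the micelle core. It followed Csn1s1 closely. At week 6 it stood at 23381, 5303 and 15145 in PyMT and at 133.2, 804.8 and 136.6 in FVB, a log2 fold change of 5.35 (SE 0.92, edgeR adjusted p = 0.00917). At week 8 PyMT replicate 2 stood at 126.6 beside 2918 and 2532 in the other 2 PyMT libraries, and FVB stood at 34.06, 786.2 and 54.24. That PyMT library therefore fell within the FVB range, and the log2 fold change of 2.70 did not pass (edgeR adjusted p = 0.244). At week 10 the log2 fold change was 5.25 (edgeR adjusted p = 0.00631). At week 12 PyMT stood at 1786, 313.1 and 2554 and FVB at 1418, 21.43 and 1413, a log2 fold change of 0.76 (SE 1.12, edgeR adjusted p = 0.658).

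Csn1s2a (ENSMUSG00000061937, chr5:88203592-88217822, plus strand) encodes an alpha-s2 casein. At week 6 it stood at 16621, 3302 and 13738 in PyMT and at 129.8, 400.1 and 33.48 in FVB, a log2 fold change of 5.90 (SE 1.02, edgeR adjusted p = 0.00923). At week 12 it stood at 1377, 275.7 and 972.2 in PyMT and at 1246, 2.52 and 1302 in FVB. The high FVB libraries matched the high PyMT libraries in level there, and the log2 fold change was 0.09 (SE 1.18, edgeR adjusted p = 0.967). It was called at week 10 with 5.02 (edgeR adjusted p = 0.00612, and 0.0639 by limma voom with sample weights) and missed the threshold at week 8 with 3.74 (edgeR adjusted p = 0.076).

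Csn1s2b (ENSMUSG00000061388, chr5:88237107-88253451, plus strand), the other alpha-s2 casein, was low throughout. Its raw counts were 60, 31 and 106 in PyMT at week 6 and 7 to 43 in PyMT at week 12, and the highest FVB count was 11. FVB had no count at weeks 10 and 12. Over the 3 libraries of each group and with a floor of 3 counts for FVB, its CPM was at least 20.6-fold higher in PyMT at week 10 and at least 20.9-fold higher at week 12. At week 6 the ratio was 18.5 with an exact 95% counting interval of 10.1 to 37.7, and all 11 FVB counts came from replicate 3. At week 8 it was 13.6 (3.48 to 117), with 0 counts in PyMT replicate 2. Such intervals cover counting error only and take reads as independent, which reads in packets may not be. Without the filter on low counts Csn1s2b was not called at weeks 6, 8 and 10 (edgeR adjusted p = 0.23, 0.574 and 0.198). It was called at week 12 (edgeR adjusted p = 0.0408).

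Csn3 (ENSMUSG00000001622, chr5:88354604-88361690, plus strand) encodes kappa casein and lies at the other end of the cluster. In PyMT it was the highest of the 10 genes per kb of transcript and did not follow the other caseins. PyMT values were 42435, 24893 and 38152 at week 6, 28037, 47098 and 30904 at week 8, 28868, 38333 and 37074 at week 10 and 29766, 33562 and 39221 at week 12. The 12 values thus spanned a range of 1.89-fold, beside 62.5-fold for Csn1s1, 185-fold for Csn2 and 82.1-fold for Csn1s2a. FVB values were 1755, 784.8 and 560.3 at week 6, 1304, 194.2 and 341.3 at week 8, 1124, 908.9 and 2997 at week 10 and 2880, 4076 and 3314 at week 12. PyMT lay above FVB at every week, with log2 fold changes of 5.08 (SE 0.52), 5.85 (SE 0.78), 4.43 (SE 0.49) and 3.37 (SE 0.23). The edgeR adjusted p values were 0.00166, 0.00663, 0.00106 and 0.000147.

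The other 5 annotated genes within the casein cluster stayed at or near 0. Both SNORA17 genes had no count in any library, 4930432K09Rik and Gm7337 had 1 count each, and Odam, an enamel-associated secretory protein gene, had 43 counts over the PyMT and 6 over the FVB libraries. None was tested.

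Wap (ENSMUSG00000000381, chr11:6531490-6538652, minus strand) encodes whey acidic protein, which is abundant in rodent milk. Its raw counts were 5881, 1481 and 6331 in PyMT at week 6, 801, 291 and 1307 at week 8, 1056, 490 and 1689 at week 10 and 200, 293 and 775 at week 12. FVB counts were 10, 0 and 3 at week 6, 5, 0 and 0 at week 8, 1, 0 and 2 at week 10 and 0, 0 and 1 at week 12. No FVB library came near the lowest PyMT library. The ratio of CPM over the 3 libraries was 1090 (95% counting interval 636 to 2040) at week 6, 384 (164 to 1180) at week 8, 1260 (430 to 6100) at week 10 and 1350 (242 to 53300) at week 12. Wap was called at all 4 weeks by edgeR, with adjusted p values of 0.00155, 0.00507, 0.00026 and 0.000328, but limma voom with sample weights gave adjusted p values of 0.0539, 0.0961 and 0.0686 at weeks 6, 10 and 12. Its fitted log2 fold changes of 8.18 to 9.79 rest on near-zero FVB counts and so depend on the prior count.

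Lalba (ENSMUSG00000022991, chr15:98310831-98313114, minus strand) encodes alpha-lactalbumin. PyMT values were 9864, 4201 and 6292 at week 6 and 4852, 4389 and 3137 at week 12, and all 12 PyMT libraries lay between 3137 and 9864. FVB values were 259.5, 16.19 and 1.76 at week 6, 16.40, 3.49 and 9.04 at week 8, 5.03, 3.01 and 223.8 at week 10 and 449.3, 185.3 and 401.3 at week 12. No FVB library reached the lowest PyMT library, but the FVB values spread over 255-fold. The log2 fold changes were 6.20 (SE 1.42), 8.99 (SE 0.47), 5.93 (SE 1.48) and 3.62 (SE 0.36), with edgeR adjusted p values of 0.027, 0.000603, 0.031 and 0.00039. The week 10 call was lost when any 1 of 5 of the 6 libraries was left out (edgeR adjusted p up to 0.0803), and the week 6 call when FVB replicate 2 or PyMT replicate 1 or 3 was (up to 0.0885).

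Glycam1 (ENSMUSG00000022491, chr15:103393193-103395509, minus strand) encodes a mucin-like protein secreted into milk. Its raw counts were 2509, 282 and 811 in PyMT at week 6 and 103, 9 and 161 at week 12. It had 0 counts in PyMT replicate 2 at weeks 8 and 10, libraries with packets of 23 and 15 reads, and FVB counts ran from 0 to 8. The ratio of CPM over 3 libraries was 465 (95% counting interval 236 to 1080) at week 6, 76.5 (29.7 to 282) at week 8, 529 (94.4 to 20900) at week 10 and 36.3 (18.2 to 84.9) at week 12.

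Btn1a1 (ENSMUSG00000000706, chr13:23548861-23557770, minus strand) encodes butyrophilin, a membrane protein of the milk fat globule. PyMT values were 6612, 2958 and 3876 at week 6 and 2667, 1440 and 1805 at week 12. FVB values were 1968, 207.4 and 183.3 at week 6 and 2315, 1549 and 2441 at week 12. The FVB level of week 12 reached that of PyMT, and the log2 fold change there was -0.05 (SE 0.27, edgeR adjusted p = 0.913). Only week 8 was called, with 2.52 (SE 0.65, edgeR adjusted p = 0.0457), and 4 of its 6 libraries were each needed for the call (edgeR adjusted p up to 0.151 without one). At week 6 the log2 fold change was 2.50 (edgeR adjusted p = 0.115), and without FVB replicate 1 it was 4.54 (edgeR adjusted p = 0.000997). FVB replicates 1 and 2 of that week were both rich in muscle genes, with Btn1a1 at 1968 and 207.4, and the part of muscle was not tested.

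Xdh (ENSMUSG00000024066, chr17:74233248-74299522, minus strand) encodes xanthine dehydrogenase, which is also made outside the gland. Its log2 fold change over the 4 weeks, 0.86 (SE 0.16), was the smallest of the 8 tested genes. PyMT values ran from 3734 to 7073 over 12 libraries and FVB values from 1338 to 4776. The log2 fold changes were 1.42 (SE 0.38), 0.88 (SE 0.29), 0.76 (SE 0.19) and 0.44 (SE 0.24), with edgeR adjusted p values of 0.0452, 0.0898, 0.0318 and 0.202. Week 6 alone was called, and leaving out any of 5 of its 6 libraries ended the call (edgeR adjusted p up to 0.119). Week 10 passed the p but not the fold.

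Per kb of transcript (the shortest transcript holding at least 95% of the longest coding sequence) the median PyMT levels were 35639 normalized counts for Csn3, 6585 for Lalba, 3310 for Csn1s1, 2439 for Csn2, 1713 for Csn1s2a, 1391 for Wap, 1167 for Xdh, 669 for Btn1a1, 251 for Glycam1 and 20.1 for Csn1s2b. Csn3 lay above Lalba in 12 of 12 PyMT libraries, and Csn1s1 above Csn2 in 11. Neighbours that changed places most were Lalba and Csn1s1 (8 of 12), Csn2 and Csn1s2a (9 of 12), Csn1s2a and Wap (8 of 12) and Wap and Xdh (8 of 12), so their order does not exceed the spread. The order also failed in some libraries for Xdh and Btn1a1 (11 of 12), Btn1a1 and Glycam1 (11 of 12) and Glycam1 and Csn1s2b (10 of 12). Per kb of all annotated exons Wap moved to rank 8 with 276, and Csn3 stayed first with 8506. In FVB the order per kb of transcript began with Csn3 at 1225, Xdh at 712 and Csn1s1 at 461, and Lalba stood at 22.2. Per kb of all annotated exons it began with Xdh at 696 and Csn1s1 at 453, followed by Csn3 at 292, so the first place in FVB depends on the length used.

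**Figure D2:**
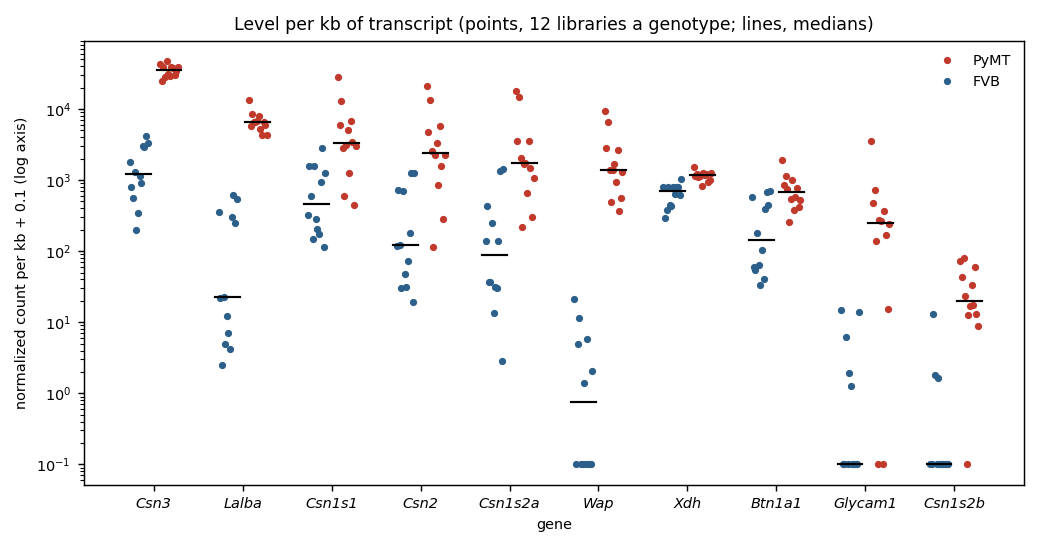
Normalized count per kb of transcript plus 0.1 (log axis) of each gene, ordered by the PyMT median, with 12 libraries a genotype as points and medians as lines. Per kb of this transcript Csn3 has the highest median in both genotypes, 35639 and 1225, though per kb of all annotated exons Xdh is higher in FVB (696 beside 292), and its PyMT points are the tightest of the caseins.

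Whether the gap between PyMT and FVB widened or narrowed with age was tested directly. From week 8 to week 10 no member passed by edgeR (0 of 8 at an unadjusted p under 0.05), beside a background of 0.0067%. DESeq2 called 0 members and 7 of 14918 genes. From week 6 to week 12 none passed by edgeR either, beside a background of 0%, and DESeq2 called 0 members and 10 of 14918 genes. By edgeR 6 of 8 members had an unadjusted p under 0.05 there. The share of all tested genes at that unadjusted level was not counted, so the 6 of 8 has no background. The largest change was that of Csn1s2a, whose log2 difference shrank by 5.83 (SE 1.81, edgeR adjusted p = 0.923). These p values do not show that the differences were equal.

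Within PyMT, week 12 against week 6, no tested member passed the adjusted threshold by edgeR, beside a background of 0%. DESeq2 called 0 members and 97 of 14918 genes. By edgeR 4 of 8 members had an unadjusted p under 0.05, and the share of all tested genes at that level was not counted. Wap stood at 5235, 1545 and 3592 normalized counts at week 6 and at 205.6, 313.1 and 716.2 at week 12. The log2 change was -3.07 (SE 0.64, edgeR adjusted p = 0.0981). All 3 libraries of week 12 lay below all 3 of week 6 for 6 of the 10 genes (Csn1s1, Csn2, Csn1s2a, Wap, Glycam1 and Btn1a1), and above them for 0, beside 8.31% and 7.93% of all tested genes. Glycam1 is not among the tested genes. Csn1s1, Csn2 and Csn1s2a changed by -2.76 (SE 1.1), -3.24 (SE 1.35) and -3.69 (SE 1.32) on the log2 scale, with edgeR adjusted p values of 0.572, 0.627 and 0.486. Csn3 changed by -0.04 (SE 0.53).

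Within FVB, week 12 against week 6, none passed by edgeR, beside a background of 0%. DESeq2 called 0 members and 19 of 14918 genes. By edgeR 2 of 8 members had an unadjusted p under 0.05, and here too the share of all tested genes at that level was not counted. Csn3 was at 560.3 to 1755 at week 6 and at 2880 to 4076 at week 12, a log2 change of 1.69 (SE 0.54, edgeR adjusted p = 1). It was the only 1 of the 10 genes whose week 12 libraries all lay above those of week 6, beside 7.15% of all tested genes, and 0 lay below, beside 4.65%. Xdh changed by 0.72 (SE 0.30, edgeR adjusted p = 1).

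Since the luminal marker sums differed between the genotypes, the fits were repeated with libraries scaled to the 8 luminal markers, after which the median over all tested genes stood at a log2 fold change of -1.07, -1.63, -1.66 and -1.27 at weeks 6, 8, 10 and 12. Called higher were then 6, 4, 4 and 3 of 8 members, beside 0.838%, 0.556%, 0.865% and 1.65% of all tested genes, and with the 4 weeks together 5 of 8 were, beside 1.86%. Csn3 kept log2 fold changes of 3.90, 3.77, 2.45 and 2.13 and was called each time, as was Wap. Lalba was called at weeks 6, 8 and 12, with 4.82, 7.31 and 2.25, and not at week 10 (3.64, edgeR adjusted p = 0.067). Csn1s1 was called at week 6 alone. Xdh turned to -0.92, -0.96 and -0.92 at weeks 8, 10 and 12 and was not called. Btn1a1 at week 12 became lower in PyMT, at -1.37 (edgeR adjusted p = 0.0443), beside 44.5% of all tested genes called lower there. Csn1s1, Csn2 and Csn1s2a at week 12 turned to -0.84, -0.88 and -1.46 without passing.

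**Figure D3:**
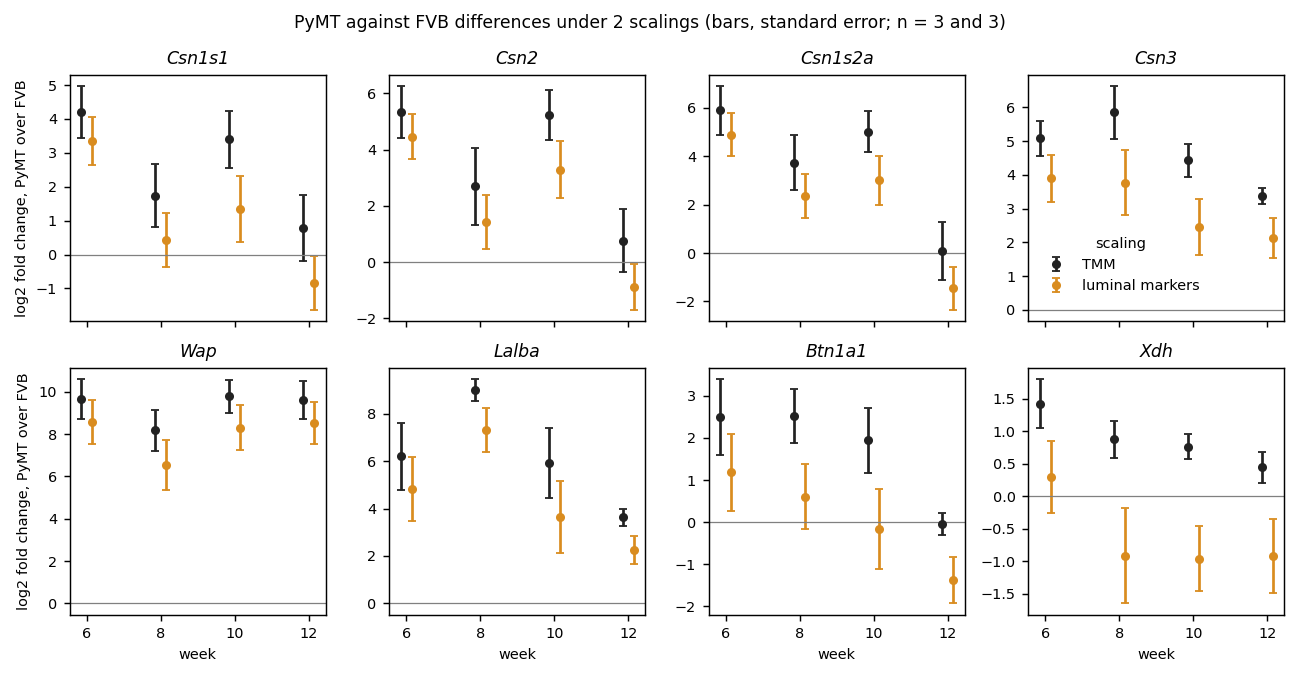
Log2 fold change of PyMT over FVB by week for the 8 tested genes, with standard errors as bars (3 against 3 libraries), under TMM scaling (black) and scaling to 8 luminal markers (orange). Csn3, Wap and Lalba stay above 0 under both scalings at every week, Wap values depend on the prior count, and Xdh lies above 0 under TMM but at -0.92, -0.96 and -0.92 under luminal scaling at weeks 8, 10 and 12.

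Across the 12 PyMT libraries Csn1s1, Csn2 and Csn1s2a varied together, with Pearson r of log2 normalized counts of 0.97 for each pair (0.969 or 0.970). Csn1s1 also went with Btn1a1 at 0.898, Glycam1 at 0.885 and Wap at 0.862, and less with Lalba at 0.507. Its r with Csn3 was -0.08. Across the 12 FVB libraries Csn1s1 and Csn2 still varied together at 0.95, whereas Csn3 went with Btn1a1 at 0.86 and Lalba at 0.832, and Lalba with Btn1a1 at 0.937. These are descriptions over libraries that differ in week and tissue makeup.

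**Figure D4:**
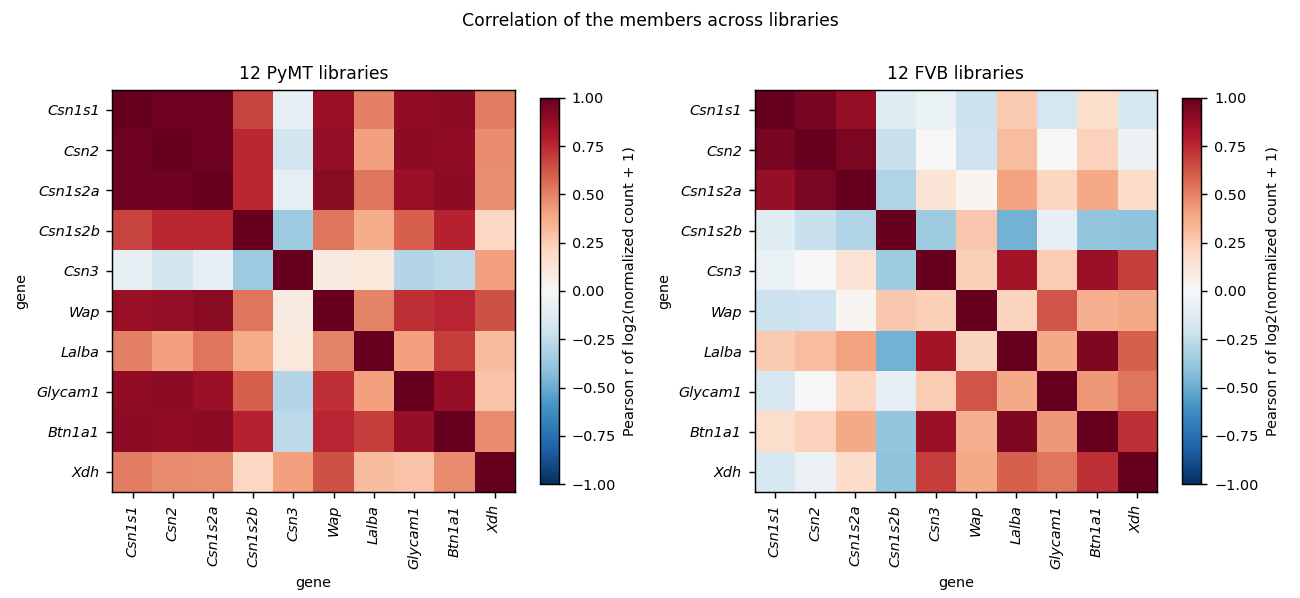
Pearson r of log2(normalized count + 1) between the genes across 12 PyMT libraries (left) and 12 FVB libraries (right), with red for positive and blue for negative r. Csn1s1, Csn2 and Csn1s2a form a block in both genotypes, and Csn3 stands apart from them in both, at -0.08 with Csn1s1 in PyMT and -0.06 in FVB.

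In PyMT the lowest library of a week was replicate 2 at 4 of 4 weeks for Csn1s1, Csn2, Csn1s2a, Glycam1 and Btn1a1, but at only 1 of 4 for Csn3. Replicate numbers do not mark a shared mouse or litter in the labels. These libraries had packets of 25, 23 and 15 reads at weeks 6, 8 and 10 and none at week 12, and the part of the packets was not tested. The ratio of summed caseins to Lalba was 6.96 to 17.7 in PyMT and 9.50 to 976 in FVB.

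The promoters of the casein genes that varied together are shown with the match to TTCNNNGAA, the core letters of a STAT recognition sequence, in capitals. They are the 250 bases before the RefSeq start (GRCm38.p6), 5′ to 3′ on the gene's strand. The letters read the same on both strands. Csn1s1 lies at chr5:87665958-87666207 (plus strand), Csn2 at chr5:87699426-87699675 (minus strand) and Csn1s2a at chr5:87774200-87774449 (plus strand).
Csn1s1: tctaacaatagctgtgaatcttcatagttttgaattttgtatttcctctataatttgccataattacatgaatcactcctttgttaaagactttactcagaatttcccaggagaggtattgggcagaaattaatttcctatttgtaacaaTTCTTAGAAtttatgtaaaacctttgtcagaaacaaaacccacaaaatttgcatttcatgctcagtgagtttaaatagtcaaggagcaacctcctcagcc
Csn2: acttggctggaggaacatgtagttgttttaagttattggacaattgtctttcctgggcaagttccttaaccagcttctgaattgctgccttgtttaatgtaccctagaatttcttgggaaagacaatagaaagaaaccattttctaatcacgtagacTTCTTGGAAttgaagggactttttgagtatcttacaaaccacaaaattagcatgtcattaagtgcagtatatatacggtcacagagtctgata
Csn1s2a: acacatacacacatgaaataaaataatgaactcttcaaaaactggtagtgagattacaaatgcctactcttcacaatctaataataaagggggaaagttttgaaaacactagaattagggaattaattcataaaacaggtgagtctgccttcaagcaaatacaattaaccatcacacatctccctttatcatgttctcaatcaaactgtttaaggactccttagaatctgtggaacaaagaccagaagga
Of the 10 genes 6 had a RefSeq promoter (Csn1s1, Csn2, Csn1s2a, Wap, Lalba and Glycam1), and 3 of them held the letters. The first base lay at position -100 for Csn1s1, -93 for Csn2 and -145 for Glycam1, counted back from the start. Among 32851 RefSeq promoters, 2306 (7.02%) held them. A match is a description of letters and not a site, and Csn1s2a, which varied with Csn1s1 and Csn2, had none in this window.

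The other genes of the pathway were read against the same background at weeks 6, 8, 10 and 12, which was 3.58%, 3.57%, 4.83% and 7.75% of all tested genes called higher and 6.46%, 6.37%, 9.09% and 13% called lower in PyMT. Of 11 tested genes of prolactin and STAT5 signaling, 1, 1, 2 and 2 were higher and 0, 1, 1 and 2 lower. Their median log2 fold change was -0.15, -0.04, -0.06 and 0.07. Elf5, a transcription factor of alveolar cells, rose at every week, by 2.39, 2.24, 2.47 and 2.12 on the log2 scale. Prlr, the prolactin receptor, fell by 1.02 at week 8, by 1.25 at week 10 and by 1.83 at week 12. At week 6 it was not called lower. Stat5a at -0.04 to 0.47 and Stat5b at -0.34 to 0.07 passed at no week. With luminal scaling Elf5 kept its sign at 0.83 to 1.40 and was called at week 6 alone, and Stat5b was called lower at weeks 6, 10 and 12 and Stat5a at week 10. That scaling called 28.9%, 40%, 54.8% and 44.5% of all tested genes lower at weeks 6, 8, 10 and 12, so these lower calls are not particular to Stat5a and Stat5b.

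Of 9 tested genes of other milk proteins 4, 5, 7 and 5 were higher, beside a background of 3.58%, 3.57%, 4.83% and 7.75%, and none lower, with median log2 fold changes of 3.13, 2.90, 2.90 and 2.52. Trf, whose symbol matched 2 gene entries, was thereby left out of these counts and medians although its first entry passed the filter. That entry stood at 97.13 to 508.0 normalized counts in FVB and 600.8 to 1667 in PyMT. Spp1 (osteopontin) rose by 5.72, 6.06, 5.33 and 3.17, Pigr (the receptor that carries IgA across epithelium) by 5.38, 6.68, 5.48 and 4.07, Lcn2 (an iron-siderophore binding protein) by 4.59, 4.31, 4.63 and 3.32, and Wfdc18 by 3.13, 2.90, 3.42 and 5.03. Of the 9 lactose synthesis genes 3, 2, 2 and 2 were higher, beside the same background, and 1, 1, 2 and 2 were lower, beside 6.46%, 6.37%, 9.09% and 13%. With luminal scaling Hk1 (0.59 to 0.89) was called at no week and Slc2a1 (0.18 to 1.04) at week 6 alone. With TMM scaling Hk1, a hexokinase, rose by 1.85, 2.22, 2.13 and 1.90, Slc2a1, a glucose carrier, rose at weeks 6, 8 and 12 by 2.02, 2.11 and 1.43, and the phosphoglucomutase Pgm2 fell by 1.84, 1.63, 2.35 and 2.28.

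Of 10 tested milk fat droplet genes none was higher and 4, 3, 5 and 4 were lower, beside a background of 6.46%, 6.37%, 9.09% and 13%, with median log2 fold changes of -0.78, -1.77, -2.06 and -1.78. Cd36, a fatty acid carrier, fell by 2.35, 3.74, 4.33 and 4.06, Dgat1, which makes triglyceride, by 1.17, 1.68, 2.02 and 2.02, and Gpam, which starts glycerolipid synthesis, by 1.32, 1.87, 2.10 and 2.47. Lpin1 fell at weeks 6, 10 and 12, by 1.37, 2.30 and 3.00. Adipocytes also express these genes, and all 7 adipocyte markers were called lower at every week. The part of adipocytes in these falls was not tested. Of 6 tested genes of mineral secretion 3 were higher at each week, beside a background of 3.58%, 3.57%, 4.83% and 7.75%, and none lower. Slc30a2, a zinc carrier, was among them at each week, with 1158, 640, 516 and 298 counts summed over the 3 PyMT libraries beside 10, 5, 0 and 1 in FVB. Like Wap, Slc30a2 passed the filter through the PyMT libraries alone, since 0 FVB libraries reached 1 CPM, which favours a call of higher. Slc34a2, a phosphate carrier, rose by 3.22 to 4.99 and was not called at week 10 with luminal scaling (2.40).

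Of the luminal markers 3, 3, 6 and 5 of 8 were higher, beside 3.58%, 3.57%, 4.83% and 7.75% of all tested genes. At each week 3 of 6 basal markers and all 5 endothelial markers were lower, beside 6.46%, 6.37%, 9.09% and 13%. Of 6 skeletal muscle markers 0, 2, 0 and 5 were lower, 1 of 3 macrophage markers was lower at week 10 and none otherwise, and none of 6 B cell markers was tested.

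The tested genes most like the members were chosen by the smaller of their Pearson r, over the 12 PyMT and the 12 FVB libraries, with the members' mean log2(normalized count + 1). They were Lao1 (0.786 in PyMT and 0.905 in FVB), Nos1 (0.728 and 0.742), A930018M24Rik (0.735 and 0.725), Pgd (0.714 and 0.813) and Ptges (0.714 and 0.71).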

How the data were processed

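RNA was measured in 24 samples, 3 per genotype and week, each from 1 mouse. Raw counts per gene were deposited, which the authors had obtained with HTSeq after GSNAP alignment to mm9, with no normalization. The strand setting and gene annotation of the counting are not given in the sources used here. None of the 10 members overlaps another gene model.

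The tools were edgeR 4.0.16, limma 3.58.1 and DESeq2 1.42.0 under R 4.3.3, and Python 3.11.15. TMM-scaled counts of the 14918 of 37991 genes that reached 1 CPM in 12 or more samples were tested by the quasi-likelihood test of edgeR and adjusted by Benjamini-Hochberg. Each week used its own 6 samples. The 4 weeks together used week as a factor, and changes between weeks used 1 fit of 8 groups. The standard error was the log2 fold change over the square root of F, and 1 was added to normalized counts before log2. The fit was tested on simulated data. The members and gene lists were chosen with earlier results of these data known. Named were all members, listed lactation genes called at 3 or 4 weeks, Prlr, Stat5a, Stat5b and Elf5, the casein cluster genes and the 5 most alike genes. Totals ran from 6969375 to 13516601, and floors of 3 counts and counting intervals cover counting error only. Replicates were no copies (chi-square per gene 20.4 to 238 over 24 pairs). Alternatives were DESeq2, RLE, library size only, no filter, counts over the packet size, limma voom with sample weights, luminal scaling, a replicate block, a fit of all 24 samples and each library left out. Promoters are RefSeq's.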

Additional observations from a re-analysis of the deposited data

How the results depend on the processing

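None of the 27 calls of a member reversed under the alternatives run. Over 1776 repeats of 72 member values 1665 kept direction and side of the threshold, 35 lost a call, 36 gained one, and 40 changed the sign of a value that was not called. Causes were not tested. Without each replicate in turn the number of members called ran from 5 to 8 at week 6, 3 to 5 at week 8, 4 to 7 at week 10, 3 to 3 at week 12 and 7 to 7 over the 4 weeks, and was 0 in the changes between weeks. Of 14918 genes 857 to 1606, 513 to 1473, 1262 to 2370 and 2189 to 3438 were called by week. Over the 4 weeks 3680 to 3908 were, and 0 to 10 in the changes.

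With limma voom and sample weights 7 members were called at week 8 (Csn1s1, Csn1s2a and Xdh added), 2 narrowed their difference from week 6 to 12 (Csn3 and Btn1a1), 3 were lower at week 12 than at week 6 in PyMT (Csn1s1, Csn1s2a and Wap) and 3 were higher in FVB (Csn3, Btn1a1 and Xdh). Over all genes, in either direction, voom called 2366 of 14918 at week 8 and 10 in the change of the difference. It called 38 within PyMT and 58 within FVB. Without the filter on low counts, which adds Csn1s2b and Glycam1, 5 were called at week 12 and 1, Wap, fell within PyMT. Over all genes, in either direction, 3394 and 8 of 26153 were called there. With counts divided by the packet size 1, Wap, fell within PyMT, beside 7 of 14918 genes called in either direction. With the libraries that have packets left out, chosen after seeing the data, 3 were called over the 4 weeks, beside 3378 of 14918 genes in either direction.

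With luminal scaling the log2 fold change turned to -0.92, -0.96 and -0.92 for Xdh at weeks 8, 10 and 12, to -0.63 for Xdh over the 4 weeks, to -0.15 for Btn1a1 at week 10, and to -0.84, -0.88 and -1.46 for Csn1s1, Csn2 and Csn1s2a at week 12. At week 12 Csn1s2a was -0.055 with the packet size and Btn1a1 0.29 by library size only. The change of the Wap difference from week 6 to 12, set by FVB counts near 0, was 0.30 with DESeq2, 0.026 without the filter, 0.071 with the packet size and 0.053 with luminal scaling, and Csn3 within PyMT was 0.0068 by library size only.

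Without single replicates the log2 fold change at week 12 ran from -0.54 to 0.53 for Csn1s2a and from -0.31 to 0.13 for Btn1a1. The change from week 8 to 10 ran from -0.20 to 3.34 for Csn2, -0.74 to 2.28 for Csn1s2a, -2.55 to 2.66 for Wap, -3.65 to 1.01 for Lalba, -1.51 to 0.68 for Btn1a1 and -0.47 to 0.021 for Xdh, that of Wap from week 6 to 12 from -1.68 to 2.12, Csn3 within PyMT from -0.24 to 0.12 and Csn1s1 within FVB from -0.35 to 1.58.

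Samples of the same replicate number in both genotypes deviated together by r of -0.03 to 0.18 over 12 pairs, with 4 over 0.1, of which 3 were of replicate 3 (0.145, 0.177 and 0.164 at weeks 6, 8 and 10). Not every pair was over 0.1, so the numbers were not taken as pairs. Litter, a covariate the study names, is not given in the labels, and whether the numbers mark litters is not known here. The replicate block gave 8, 4, 7 and 4 members called at weeks 6, 8, 10 and 12, 7 over the 4 weeks and 0 in the 2 changes of the difference. Over all tested genes it called 1181, 1364, 2013 and 2787 of 14918 at the 4 weeks, in either direction. It called 3779 over the 4 weeks and 0 in the changes. Same-numbered samples of weeks 6 and 12 deviated together by r of -0.025 to 0.0407 in PyMT and 0.0984 to 0.396 in FVB. A replicate block across the weeks of each genotype, chosen after seeing the data, called 0 members within PyMT and 0 within FVB, with Wap in PyMT at -2.99 (edgeR adjusted p = 0.083). At low depth Csn1s2b, Glycam1 and FVB Wap rest on few counts.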
